A study of Mus musculus with 8 samples.

Results

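The transcripts of 10 genes that set the activity of the NRF2 pathway were followed in primary mouse HSCs and in LPS/ATP-treated BMDM exposed to vehicle or auranofin. The genes were listed by symbol for their known roles, with earlier results of these data known. They are the transcription factors Nfe2l2 (NRF2) and Nfe2l1 (NRF1), the repressor complex Keap1, Cul3 and Rbx1, the repressors Bach1 and Bach2, and the small MAF genes Maff, Mafg and Mafk. All 10 were listed in both tables, among 18645 genes in HSCs and 17408 genes in BMDM. Target genes were not members and are described only beside them.

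RNA was sequenced from 8 libraries, 2 in each of 4 groups of C57BL/6 cells. Activated HSCs, which make collagen in the fibrotic liver, came from liver perfused with collagenase and a density gradient, and were exposed for 12 h to 0.03 µM auranofin, a gold-containing anti-rheumatic drug, or to vehicle. The sample labels call these controls untreated, and no age is given for the mice. BMDM were grown with M-CSF from the bone marrow of 8-week-old male mice. Every BMDM library, controls included, had been treated with LPS at 100 ng/mL and ATP at 1 mM, and no BMDM library without LPS and ATP was analysed here. Auranofin was added to BMDM for 1 h, at 0.1 µM by the labels and 0.3 µM by the paper. Nothing states that the replicates of a group came from separate animals or cultures, so the p-values measure only the spread between these libraries, which may be technical. Levels are FPKM, fragment numbers corrected for transcript length and library size, so levels can be compared between genes. The depth is not stated. From the steps between low values it was estimated at 29700000 to 39500000 fragments in HSCs and 27400000 to 34800000 in BMDM, which puts at least 772 fragments behind every value of the 9 members other than Bach2, counting error only.

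NRF2 is made continuously and is held low by KEAP1, an adaptor that presents it to the ubiquitin ligase built on CUL3 and RBX1. When electrophiles or oxidants modify cysteines of KEAP1, NRF2 escapes degradation, enters the nucleus, pairs with a small MAF protein and binds antioxidant response elements in genes of glutathione, thioredoxin and heme metabolism. BACH1 pairs with the same small MAF proteins and represses the same elements until heme removes it. Much of this control acts on protein, which the files do not measure.

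The HSC libraries held macrophage transcripts. The summed level of 12 macrophage markers was 7206 to 7337 FPKM, and that of 11 stellate cell markers 3063 to 3685 FPKM. Lyz2 alone was at 5379 to 5554 FPKM, and without this gene the macrophage sum is below the stellate sum. The 7 endothelial markers summed to 182 to 194 FPKM. With auranofin, 1 macrophage marker (Clec4f, log2 fold change 0.27) was higher, 1 stellate marker (Acta2, -0.38) was lower and 2 endothelial markers (Stab2, -0.37, and Clec4g, -0.44) were lower at an adjusted p under 0.05 in limma. By this rule 2.33% of all genes tested were called. Of the 11 stellate markers, 9 had lower means with auranofin, 5 of them (Acta2, Col1a1, Col1a2, Col3a1 and Des) at an unadjusted p under 0.05, beside 17.8% of all genes. Their median log2 fold change was -0.13, and their sum was 3510 and 3685 FPKM with vehicle and 3063 and 3193 FPKM in the auranofin libraries. Hepatocyte markers summed to at most 1.76 FPKM. Fewer cells of a type and less RNA per cell cannot be told apart in bulk RNA, and the part of these cells in the members' levels was not tested. The BMDM libraries were macrophage-like in their markers (6925 to 7793 FPKM), with 13.6 FPKM or less for the endothelial and stellate lists. The lymphocyte and neutrophil markers were nearly all S100a8, a calcium-binding protein gene of myeloid cells. It was at 54.9 and 58.5 FPKM in BMDM with vehicle and at 85.5 and 81.0 FPKM with auranofin (log2 fold change 0.55, adjusted p = 0.721, limma). In HSCs it was at 23.6 FPKM in auranofin replicate 2 and at 3.75 to 6.87 FPKM in the other libraries. In BMDM, auranofin replicate 1 stood apart. Among 4245 genes of at least 10 FPKM, it differed 2-fold or more from the vehicle libraries in 368 and 377 genes, whereas auranofin replicate 2 did so in 15 and 12 and the vehicle libraries differed from each other in 14. Both auranofin libraries carry the same labels. The files do not show whether both were exposed alike or at which of the stated doses, so each BMDM value is given for each library and a mean of both cannot be read as the response to the labelled dose.

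Promoters of the members were read from RefSeq to show where the core of the antioxidant response element, TGACNNNGC on either strand, occurs in front of these genes themselves. All 10 members matched, with 16 start sites, and the 250 bases before each start were searched. The letters were found before 4 of the 10 members, and before 11.5% of 27025 genes searched in the same way. The stretches around them are printed for all 4 members with a match. Each stretch is written 5′ to 3′ on the strand of the gene, on build GRCm38.p6, the assembly called mm10, with the match in capitals.
Nfe2l2, chr2:75704885-75704913, minus strand: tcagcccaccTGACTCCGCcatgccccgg
Maff, chr15:79346499-79346527, plus strand: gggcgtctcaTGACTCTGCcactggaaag
Mafg, chr11:120633751-120633779, minus strand: ctctgcaggaGCACGGTCAacccggcgag
Mafk, chr5:139791513-139791535, plus strand: gatcccggaaGCGGTGTCAgtac
The match lay 240 to 232 bases before the start of Nfe2l2 and 112 to 104 bases before the first of 3 starts of Maff, both on the strand of the gene. In Mafg it lay 222 to 214 bases and in Mafk 13 to 5 bases before the start, on the opposite strand, so the capitals read as its reverse complement. The Mafg start lies inside the annotated span of the gene (chromosome 11, 120625117 to 120634955), and 83 bases of its window and 144 bases of the Nfe2l2 window fall in exons of another annotation, GENCODE M21. Without a match in these windows were Nfe2l1, Keap1, Cul3, Rbx1, Bach1 and Bach2. The Bach2 window (chromosome 4, 32417185 to 32417434) lies inside the annotated span of the gene, 32238413 to 32586109. The bases before that span were not searched. Of the 16 starts, 13 were found in transcripts of GENCODE M21. Those of Nfe2l2 and Cul3 and start 5 of Nfe2l1 were not. A match of these letters is a description of the sequence, and binding was not measured.

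With vehicle, the members spanned 1.25 to 121.0 FPKM in HSCs. Nfe2l2 was the highest, at 121.0 ± 2.85 FPKM (SD, n = 2), and stood at rank 526 of the 18645 genes. Nfe2l1 followed at 86.2 ± 0.347 FPKM, and then Rbx1, Keap1, Mafg, Cul3, Mafk, Maff and Bach1 between 34.5 and 12.6 FPKM. Bach2 was the lowest, at 1.25 ± 0.00179 FPKM. In BMDM the order was different. Nfe2l1 was the highest, at 108.5 ± 1.08 FPKM (SD, n = 2), followed by Mafk at 47.2 ± 0.105 FPKM, Keap1 at 42.4 ± 2.33 FPKM and Nfe2l2 at 33.0 ± 0.448 FPKM. Rbx1, Cul3, Bach1, Maff and Mafg then ran from 29.6 to 10.4 FPKM, and Bach2 was at 0.0369 FPKM. In neither cell type did the values of the vehicle libraries overlap between neighbours in this order.

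Nfe2l2 was thus 3.66 times as high in HSCs as in BMDM with vehicle, and Mafg 2.20 times. Mafk was 2.58 times and Keap1 1.65 times as high in BMDM. Bach2 was 33.9 times as high in HSCs, against only 0.0369 FPKM in BMDM. Cul3, Maff, Rbx1, Bach1 and Nfe2l1 lay within 1.26-fold of each other in the 2 cell types. These ratios were not tested, because each table was normalized on its own and the cells also differed in LPS and ATP. The HSC libraries also held macrophage and endothelial transcripts, so their levels cannot be assigned to stellate cells alone.

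**Figure D1:**
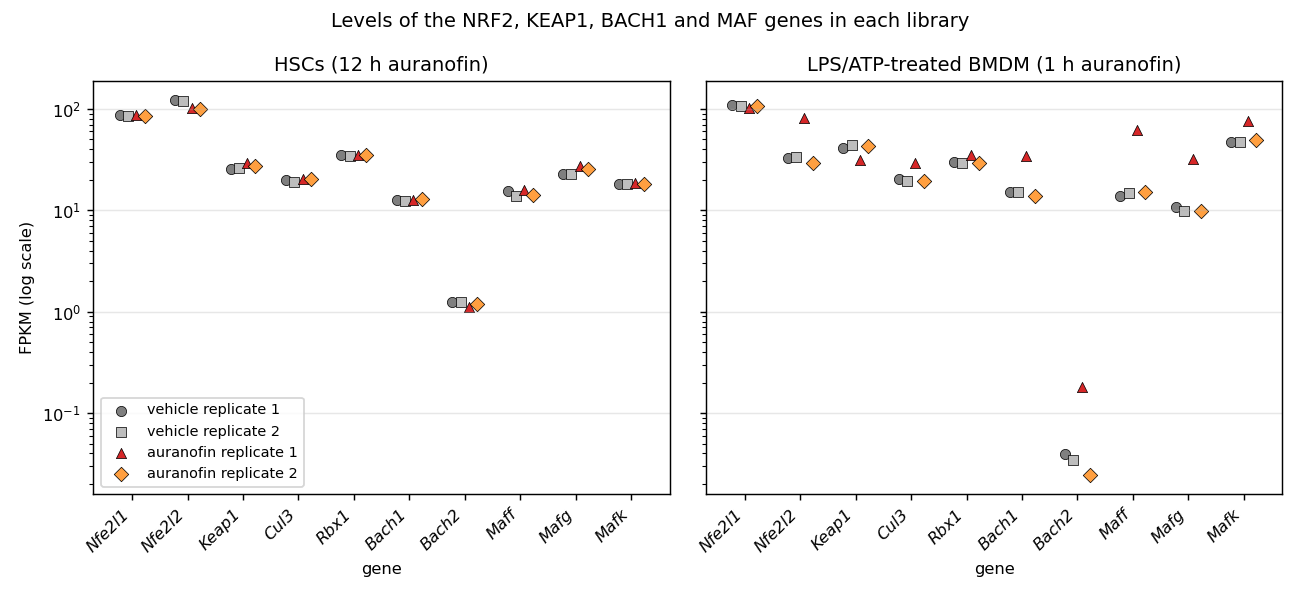
FPKM on a log axis of the 10 members in each of the 4 HSC libraries (left) and the 4 BMDM libraries (right), 1 point per library. In HSCs the 4 points of each gene lie close together. In BMDM auranofin replicate 1 (red triangles) stands above the others for all members except Nfe2l1 and Keap1. The wide gap of Bach2 in BMDM rests on an estimated 7.1 to 53.2 fragments per library.

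The first comparison asked which regulators changed in HSCs after 12 h of auranofin. Nfe2l2 fell, and no other member passed an adjusted p of 0.05. In limma with Benjamini-Hochberg adjustment over 12149 genes tested, 1 of 10 members passed, beside 2.33% of all genes. By at least 1.5-fold with an unadjusted p under 0.05, 0 of 10 passed, beside 0.576% of all genes, and 3 members (Nfe2l2, Mafg and Keap1) had an unadjusted p under 0.05 at any fold, beside 17.8% of all genes. The groups did not overlap in 5 of 10 members, beside 50.1% of all genes, a share like that of genes at large. The median log2 fold change was 0.03 over the members and 0.0049 over all genes.

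Nfe2l2, which encodes the activator NRF2 (NCBI gene 18024, chromosome 2, 75675513 to 75704663 on mm10), was at 123.0 and 119.0 FPKM with vehicle and at 102.1 and 99.0 FPKM with auranofin. Both auranofin libraries lay below both vehicle libraries. The summed stellate markers were lower in the same libraries, and their part in this difference was not tested. The mean of Nfe2l2 fell by 16.9%, a log2 fold change of -0.26 with a standard error of 0.04 and a 95% interval of -0.35 to -0.17 (limma, adjusted p = 0.0289). The direction held without any 1 library, with log2 fold changes of -0.29 to -0.24, but the adjusted p was 0.0735 without auranofin replicate 1 and 0.0911 without replicate 2. It ran from 0.0154 to 0.0954 over all alternatives.

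Nfe2l1, which encodes NRF1, an endoplasmic reticulum-bound relative of NRF2 that controls proteasome genes (chromosome 11, 96817414 to 96829968), was at 86.5 and 86.0 FPKM with vehicle and at 87.2 and 85.0 FPKM with auranofin. The groups overlapped, and the log2 fold change of -0.0020 had a 95% interval of -0.08 to 0.08. The level of Nfe2l1 relative to Nfe2l2 in the same library, which is free of the library's scaling, was 0.703 and 0.723 with vehicle and 0.854 and 0.859 with auranofin.

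In the KEAP1 complex the differences were small. Keap1, the adaptor and sensor (chromosome 9, 21229730 to 21239332), was at 25.3 and 26.1 FPKM with vehicle and at 29.1 and 27.5 FPKM with auranofin. Both auranofin libraries were the higher ones, by a log2 fold change of 0.13 ± 0.04 (SE), and the adjusted p was 0.207 in limma. Keap1 shares 510 exon bases with Gm16754 on the opposite strand, and whether the quantification used strand is not given in the sources used here.

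Cul3, the scaffold of the ligase (chromosome 1, 80264923 to 80340690), was at 19.9 and 19.0 FPKM with vehicle and at 20.4 FPKM in both auranofin libraries. Rbx1, its RING subunit that recruits the ubiquitin-conjugating enzyme (chromosome 15, 81466316 to 81476369), was at 35.0 and 34.0 FPKM with vehicle and at 35.5 and 34.9 FPKM with auranofin. The values of Cul3 did not overlap between the groups and those of Rbx1 did. Their 95% intervals were -0.04 to 0.17 for Cul3 and -0.06 to 0.12 for Rbx1 on the log2 scale. Relative to Nfe2l2, Keap1 stood at 0.206 and 0.219 with vehicle and at 0.285 and 0.278 with auranofin, a difference of 0.41 on the log2 scale.

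Bach1, the heme-sensitive repressor (chromosome 16, 87698954 to 87733346), was at 12.8 and 12.4 FPKM with vehicle and at 12.6 and 13.1 FPKM with auranofin. The groups overlapped, and the 95% interval of the log2 fold change was -0.08 to 0.14. Bach2, its relative best known from lymphocytes (chromosome 4, 32238413 to 32586109), was at 1.25 FPKM in both vehicle libraries and at 1.10 and 1.19 FPKM with auranofin, on an estimated 278 to 400 fragments per library. Its 95% interval was -0.27 to 0.13, and 537 of its exon bases are shared with the antisense gene Bach2os. Bach1 relative to Nfe2l2 was 0.104 in both vehicle libraries and 0.123 and 0.132 with auranofin.

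Of the small MAF genes, which encode short DNA-binding partners without an activation domain, Mafg differed most. Mafg (chromosome 11) was at 22.7 and 22.9 FPKM with vehicle and at 27.3 and 25.6 FPKM with auranofin. Both auranofin libraries lay above both vehicle libraries, with a log2 fold change of 0.21 ± 0.05 (SE) and an adjusted p of 0.0877 in limma, which ran from 0.0709 to 0.304 over the alternatives. Mafg shares 124 exon bases with Sirt7 on the same strand.

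Maff (chromosome 15, 79346621 to 79359078) was at 15.6 and 13.7 FPKM with vehicle and at 16.0 and 14.1 FPKM with auranofin. Mafk (chromosome 5, 139791536 to 139802653), which shares 169 exon bases with Tmem184a on the opposite strand, was at 18.3 FPKM in both vehicle libraries and at 18.4 and 18.0 FPKM with auranofin. Both genes overlapped between the groups, with 95% intervals of -0.16 to 0.24 for Maff and -0.10 to 0.09 for Mafk on the log2 scale. Summed over the 3 genes, the small MAF level was 56.6 and 54.8 FPKM with vehicle, against 61.8 and 57.7 FPKM with auranofin. Mafg made up 40.0% and 41.7% of this sum with vehicle and 44.2% and 44.4% with auranofin. The two-sided exact permutation p was 0.33 for the sum, for the share of Mafg and for each of the ratios to Nfe2l2 given here, the smallest that 2 libraries against 2 allow. The ratios share Nfe2l2, which was lower with auranofin, so they are not separate results.

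**Figure D2:**
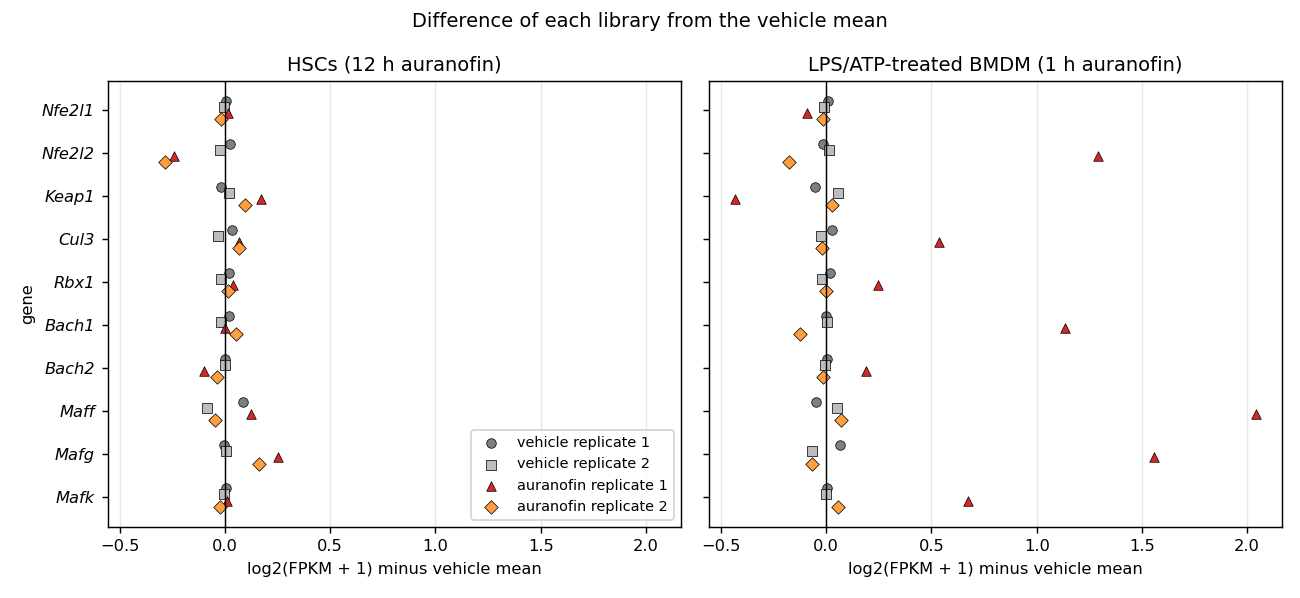
Difference of each library from the vehicle mean on the log2(FPKM + 1) scale, for the 10 members (rows) in HSCs (left) and BMDM (right), 1 point per library on a shared axis. In HSCs Nfe2l2 lies to the left by 0.24 and 0.29 in the auranofin libraries, and in BMDM auranofin replicate 1 (red triangles) reaches 2.04 for Maff whereas replicate 2 stays within 0.18 of the vehicle mean.

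The second comparison asked the same in LPS/ATP-treated BMDM after 1 h of auranofin. Here the members differed in 1 auranofin library and not in the other. By limma, 0 of the 9 members tested passed an adjusted p of 0.05, beside 0.0108% of 9232 genes (1 gene), and 0 of 9 passed 1.5-fold with an unadjusted p under 0.05, beside 0.152% of all genes. None of the 9 had an unadjusted p under 0.05, beside 0.531% of all genes (49 genes), and adjusted p-values of the members ran from 0.721 to 0.816. Bach2, with a mean under 1 FPKM, was not tested. The groups did not overlap in 3 of 9 members, beside 38.8% of all genes.

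Taken library by library, auranofin replicate 1 lay at least 1.5-fold from the vehicle mean in 5 of 9 members, beside 23.2% of all genes (1401 higher and 745 lower), and all 5 were higher. Auranofin replicate 2 did so in 0 of 9 members, beside 0.661% of all genes. The median gene of replicate 1 was itself 0.18 above the vehicle mean on the log2 scale, and the counts were made before this shift. Relative to it, Mafk stood at 0.50, less than 1.5-fold, and Keap1 at -0.61, more than 1.5-fold below. Values relative to this shift are given for each of the 9 members. The median distance from the vehicle mean was 0.67 over the members and 0.31 over all genes in replicate 1, and 0.06 and 0.07 in replicate 2. Without replicate 2, in a fit that assumes the lone library varies like the others, 8 of 9 members passed an adjusted p of 0.05, beside 65.2% of all genes (6051 genes). Without replicate 1, 0 members passed, beside 0.166% of all genes (15 genes).

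Nfe2l2 was at 32.7 and 33.4 FPKM with vehicle, at 82.2 FPKM in auranofin replicate 1 and at 29.1 FPKM in replicate 2. Replicate 1 was 2.49 times the vehicle mean, 1.11 on the log2 scale after the shift of the median gene, and replicate 2 lay below both vehicle libraries. The log2 fold change was 0.56 ± 0.53 (SE) over both, 1.29 without replicate 2 and -0.18 without replicate 1.

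Nfe2l1 was at 109.2 and 107.7 FPKM with vehicle and at 101.7 and 107.3 FPKM with auranofin. Both auranofin libraries lay a little below the vehicle libraries, with a log2 fold change of -0.05 ± 0.10 (SE). After the shift of the median gene, replicate 1 stood at -0.27 on the log2 scale. Nfe2l1 therefore stood at 3.34 and 3.23 times the level of Nfe2l2 with vehicle, at 1.24 times in auranofin replicate 1 and at 3.68 times in replicate 2.

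Keap1 was the 1 member that was well below vehicle in auranofin replicate 1. It was at 40.7 and 44.0 FPKM with vehicle and at 31.1 and 43.2 FPKM in auranofin replicates 1 and 2. Replicate 1 was 0.734 times the vehicle mean, and -0.61 on the log2 scale after the shift of the median gene, while replicate 2 lay between the vehicle libraries. Cul3 was at 20.2 and 19.4 FPKM with vehicle and at 29.1 and 19.5 FPKM with auranofin. Rbx1 was at 30.0 and 29.1 FPKM with vehicle and at 35.2 and 29.5 FPKM with auranofin. For both ligase subunits replicate 2 lay between the vehicle libraries, and replicate 1 was 1.47 times the vehicle mean for Cul3 and 1.19 times for Rbx1. After the shift of the median gene, replicate 1 stood at 0.36 for Cul3 and 0.07 for Rbx1 on the log2 scale. The ratio of Keap1 to Nfe2l2 was 1.24 and 1.32 with vehicle, 0.378 in auranofin replicate 1 and 1.48 in replicate 2.

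Bach1 was at 15.2 FPKM in both vehicle libraries, at 34.5 FPKM in auranofin replicate 1 and at 13.8 FPKM in replicate 2. Replicate 1 was 2.27 times the vehicle mean, 0.96 on the log2 scale after the shift of the median gene. The repressor was thus higher than vehicle in replicate 1 and lower in replicate 2, as was Nfe2l2. Its ratio to Nfe2l2 was 0.463 and 0.455 with vehicle, 0.419 in replicate 1 and 0.475 in replicate 2. Between the auranofin libraries Nfe2l2 differed 2.82-fold and Bach1 2.49-fold. Bach2 was at 0.0396 and 0.0342 FPKM with vehicle and at 0.180 and 0.0244 FPKM with auranofin, an estimated 7.1 to 53.2 fragments per library, and is given as values only.

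On the log2(FPKM + 1) scale, Maff had the widest range over the libraries of the 9 members tested. It was at 13.8 and 14.9 FPKM with vehicle, at 62.4 FPKM in auranofin replicate 1 and at 15.2 FPKM in replicate 2. Replicate 1 was 4.34 times the vehicle mean, 1.87 on the log2 scale after the shift of the median gene, and replicate 2 was just above both vehicle libraries. Over both, the log2 fold change was 1.06 ± 0.71 (SE).

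Mafg was at 10.9 and 9.83 FPKM with vehicle and at 32.4 and 9.84 FPKM with auranofin, so that replicate 1 was 3.12 times the vehicle mean, 1.38 on the log2 scale after the shift of the median gene, and replicate 2 lay between the vehicle libraries. Mafk was at 47.3 and 47.1 FPKM with vehicle and at 75.8 and 49.1 FPKM with auranofin. Replicate 1 was 1.61 times the vehicle mean, 0.50 on the log2 scale after the shift of the median gene. The most abundant small MAF gene with vehicle was the one with the smallest relative difference.

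The makeup of the small MAF pool was therefore unlike that of the other libraries in auranofin replicate 1. The summed level was 72.0 and 71.9 FPKM with vehicle, 170.5 FPKM in replicate 1 and 74.1 FPKM in replicate 2. Mafk made up 65.6% of the sum in both vehicle libraries, 44.4% in replicate 1 and 66.3% in replicate 2. Maff made up 19.2% and 20.8% with vehicle, 36.6% in replicate 1 and 20.5% in replicate 2. Relative to Nfe2l2 the summed level was 2.20 and 2.15 with vehicle and 2.07 and 2.54 with auranofin. The two-sided exact permutation p was 0.33 for the sum, 0.667 for the share of Maff and 1 for the share of Mafk and for the 4 ratios to Nfe2l2.

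**Figure D3:**
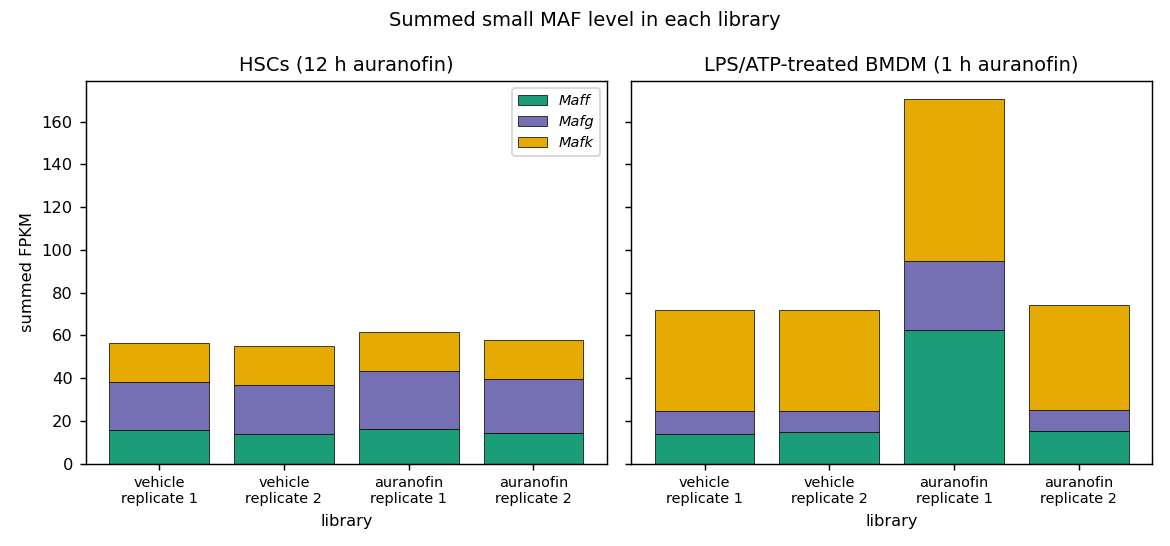
Stacked bars of the FPKM of Maff, Mafg and Mafk in each HSC library (left) and each BMDM library (right), from 0. The sums are 54.8 to 61.8 FPKM in HSCs, and 71.9 to 74.1 FPKM in 3 BMDM libraries against 170.5 FPKM in auranofin replicate 1, where the Maff part is the largest addition.

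**Figure D4:**
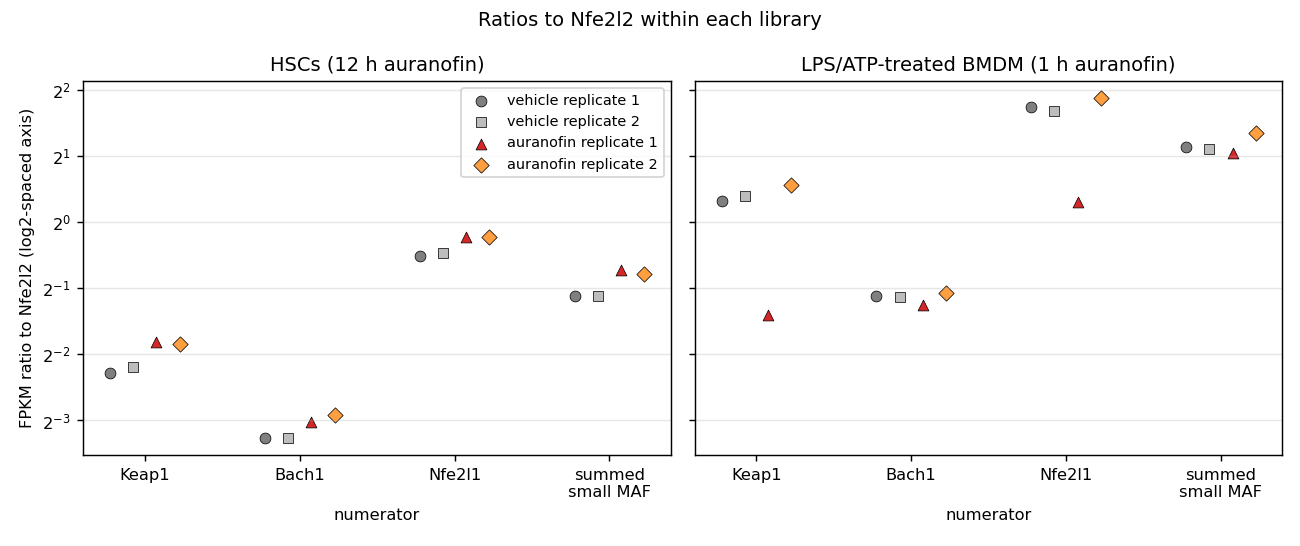
Ratio of the FPKM of Keap1, Bach1, Nfe2l1 and the summed small MAF genes to that of Nfe2l2 in each library, on an axis spaced by log2, for HSCs (left) and BMDM (right). In HSCs the auranofin libraries lie above the vehicle libraries in all 4 ratios, which share the denominator Nfe2l2, itself lower with auranofin. In BMDM auranofin replicate 1 lies low for Keap1 (0.378) and Nfe2l1 (1.24) but near the others for Bach1 (0.419) and the small MAF sum (2.07).

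Maff, which had the widest range of the 9 members on the log2(FPKM + 1) scale, was compared with the 8962 genes tested in both tables. Differences were taken from the vehicle mean of each table on the log2(FPKM + 1) scale, and likeness was the root mean square difference over the 8 libraries. The nearest genes were Rbm38, an RNA-binding protein gene and p53 target, at 0.05, and Dnajb9, an endoplasmic reticulum chaperone gene, at 0.07. The arsenite-inducible gene Zfand2a, the histone chaperone gene Nasp and the BH3-only gene Pmaip1 followed at 0.07. Zfand2a, for example, was at 23.1 and 22.9 FPKM in BMDM with vehicle and at 102.8 and 23.2 FPKM with auranofin. In HSCs it was at 32.5 and 32.3 FPKM with vehicle and at 33.2 and 32.7 FPKM with auranofin. The likeness rests on auranofin replicate 1 of BMDM, where these genes and Maff were all high.

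The targets of the pathway were set beside the regulators. Like the members, the lists of targets and of other genes were chosen with earlier results of these data known, so their counts are descriptions. In HSCs, 35 of 39 listed NRF2 targets were tested, and 29 rose and 0 fell at an adjusted p under 0.05 (limma). Of all 12149 genes tested, 151 rose and 132 fell by the same rule, 2.33% together. The median log2 fold change was 0.0049 over all genes and 0.63 over the targets. The 5 largest were Hmox1, heme oxygenase, at 1.68, Gclm, the modifier subunit of glutamate-cysteine ligase, at 1.58, Nqo1, a quinone reductase, at 1.46, Gsta3, a glutathione transferase, at 1.42, and Srxn1, which reactivates peroxiredoxins, at 1.18. All 5 heme and iron genes known to be repressed by BACH1 rose at an adjusted p under 0.05 in limma, beside 2.33% of all genes called. Their median was 0.45, and 4 of them (Hmox1, Slc48a1, Fth1 and Ftl1) are also on the target list. The log2 fold changes of the 10 regulators ran from -0.26 to 0.21, so the median target lay above every regulator.

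In BMDM, 32 targets were tested and 0 passed an adjusted p of 0.05 in limma, beside 0.0108% of all genes. None had an unadjusted p under 0.05, beside 0.531% of all genes. Their median difference from vehicle was 1.14 in auranofin replicate 1 and 0.01 in replicate 2, so the targets were high in the library in which Nfe2l2, Bach1 and the small MAF genes were high. For the heme and iron genes the medians were 2.30 and 0.02. In the fit without replicate 2, which rests on a single auranofin library and in which 65.2% of all genes passed, 30 of the targets passed.

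**Figure D5:**
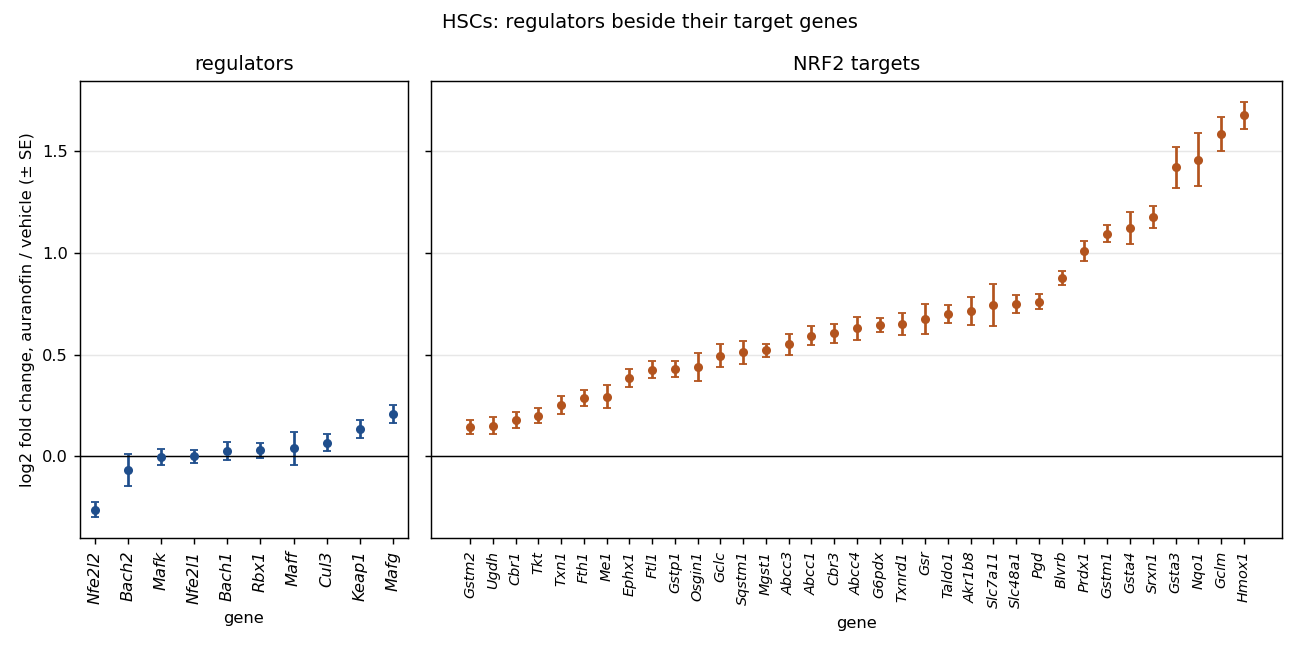
Log2 fold change with auranofin in HSCs for the 10 regulators (left) and the 35 NRF2 targets tested (right), on 1 axis, with bars of 1 standard error from limma and 2 libraries per group. The regulators lie between -0.26 and 0.21, and the targets are all above 0, up to 1.68 for Hmox1.

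Other genes around the regulators were read from lists in the same way. Over all genes tested in HSCs, 2.33% passed an adjusted p of 0.05 and 17.8% an unadjusted p of 0.05 in limma. In HSCs, 0 of 10 genes for turnover of NRF2 and BACH1 outside CUL3 passed an adjusted p of 0.05 in limma (0 at an unadjusted p under 0.05), with a median log2 fold change of 0.03. Neither did any of 8 genes for neddylation and assembly of CUL3 (median -0.02, 0 at an unadjusted p under 0.05), of 6 nuclear cofactors (1 at an unadjusted p under 0.05) or of 3 other CNC and large MAF factors tested (0 at an unadjusted p under 0.05).

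Of 7 genes for proteins that bind KEAP1, 2 rose in HSCs at an adjusted p under 0.05 in limma, beside 2.33% of all genes called. Sqstm1, the autophagy receptor p62 that can sequester KEAP1, was at 340 and 320 FPKM with vehicle and at 493 and 449 FPKM with auranofin, a log2 fold change of 0.51. Prdx1, a peroxiredoxin, was at 1062 and 986 FPKM with vehicle and at 2113 and 2007 FPKM with auranofin, a log2 fold change of 1.01. Both are also on the list of NRF2 targets. Of 5 genes for processing of NRF1, 1 rose by the same rule. It was Vcp, an ATPase that extracts proteins from the endoplasmic reticulum, at 241 and 237 FPKM with vehicle and at 290 and 285 FPKM with auranofin, a log2 fold change of 0.26 (adjusted p = 0.0199, limma). In BMDM, 0 genes of these 6 lists passed an adjusted p of 0.05 in limma, beside 0.0108% of all genes. None had an unadjusted p under 0.05, beside 0.531% of all genes.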

How the data were processed

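Poly(A) RNA libraries were made with a stranded kit. The authors deposited 1 table of FPKM per cell type, on mm10 with RefSeq transcripts. The submitters' processing notes name CASAVA, FastQC 0.11.7, Trimmomatic 0.38, HISAT2 2.1.0 and StringTie 1.3.4d, and no settings. Columns were matched to samples by name, and 0 columns of per-sample values were left unused. Values were analysed as log2(FPKM + 1), which understates changes of low genes, in limma 3.58.1 (R 4.3.3, eBayes with trend), each cell type alone, over genes whose mean reached 1 FPKM, with Benjamini-Hochberg adjustment. Sums and ratios were compared with an exact permutation test. On simulated data with 200 genes changed 2-fold, 199 in HSCs and 176 in BMDM passed 1.5-fold and an unadjusted p under 0.05. With them passed 23 and 155 unchanged genes, and 188 and 0 changed genes passed an adjusted p of 0.05. The noise was drawn for each gene alone, with the same spread in both groups. In BMDM, 1 auranofin library stood apart in many genes at once, so these counts cannot show what that comparison could detect.

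The members and the lists were chosen with earlier results of these data known. Named were all members, up to 5 called genes per list, cell type and direction, and the 5 genes nearest to the member with the widest range. Replicate numbers share no stated origin, and with 2 pairs per cell type they were not taken as pairs. A planned search of the members' proteins was not run. Alternatives changed the pseudocount, the filter, the normalization, the variance model, the block and the libraries used. Tables and figures were made in Python 3.11.15 (matplotlib 3.10.9, scipy 1.17.1, pandas 2.3.3, numpy 2.4.6).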

Additional observations from a re-analysis of the deposited data

Results flagged for a closer look

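The share of Maff in the summed small MAF level moved in opposite directions in the 2 cell types. In BMDM its mean was 8.53 percentage points higher with auranofin (19.2% and 20.8% with vehicle, 36.6% and 20.5% with auranofin), each auranofin library being above the vehicle mean. In HSCs each auranofin library was below the vehicle mean (27.5% and 25.0% with vehicle, 25.9% and 24.4% with auranofin). Whether the 2 cell types differed was not tested, the groups overlap in both, and auranofin replicate 2 of BMDM lies between its vehicle libraries.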

How the results depend on the processing

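Leaving out 1 library decided most of the BMDM values. Over the libraries left out, the members past an adjusted p of 0.05 ran from 0 to 8, members past the 1.5-fold rule from 0 to 5, NRF2 targets past an adjusted p of 0.05 from 0 to 30, all genes past an adjusted p of 0.05 from 1 to 6051 and past the 1.5-fold rule from 14 to 2146, each highest without auranofin replicate 2. Without auranofin replicate 1, the sign turned for Nfe2l2 (range over libraries left out -0.18 to 1.29), Keap1 (-0.43 to 0.028), Cul3 (-0.018 to 0.53), Rbx1 (-0.0028 to 0.24), Bach1 (-0.12 to 1.13) and Mafg (-0.066 to 1.56), and for the log2 ratios to Nfe2l2 of Bach1 (-0.13 to 0.049), Keap1 (-1.76 to 0.21) and Nfe2l1 (-1.41 to 0.17). The summed small MAF difference in BMDM ran from 0.042 to 1.25 on the log2 scale. In HSCs the members past an adjusted p of 0.05 ran from 0 to 1, the targets from 24 to 30, all genes past an adjusted p of 0.05 from 179 to 517 and past the 1.5-fold rule from 107 to 139. Signs turned there only for differences near 0 (Nfe2l1 -0.020 to 0.016, Maff -0.048 to 0.12, Mafk -0.021 to 0.0094). With no filter on low values, HSC counts at an adjusted p of 0.05 were 0 members, 16 targets and 49 genes. BMDM counts were then 0 genes, and 22 by the 1.5-fold rule. With eBayes without trend they were 0 members and 129 genes in HSCs and 2 genes in BMDM. A pseudocount of 0.1 gave 124 genes in HSCs and 27 in BMDM by the 1.5-fold rule, a mean of at least 5 FPKM gave 8 in BMDM, and quantile normalization gave 0 genes at an adjusted p of 0.05 in BMDM. The causes were not tested. The replicate number as a block gave 42 genes in BMDM by the 1.5-fold rule against 14, 282 against 283 at an adjusted p of 0.05 in HSCs, and changed no member's call. Deviations of same-numbered libraries correlated at 0.11 in HSCs and -0.06 in BMDM. Depth limits Bach2 in BMDM.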

Other observations

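The following genes were chosen after their BMDM values were seen, none passed a test in BMDM, and auranofin replicate 2 lay near the vehicle libraries for each. Maf, which encodes a relative of the small MAF proteins with an activation domain, was in BMDM at 64.5 and 66.8 FPKM with vehicle and at 21.1 and 62.8 FPKM with auranofin. In HSCs its log2 fold change was -0.061. Fbxo22, an F-box gene of BACH1 turnover, was in BMDM at 4.47 and 4.28 FPKM with vehicle and at 9.35 and 4.64 FPKM with auranofin. Ikbkb, the kinase IKKβ that KEAP1 can bind, was there at 64.5 and 67.0 FPKM with vehicle and at 29.8 and 64.8 FPKM with auranofin. Vcp and Ddi2, which act in NRF1 processing, were 2.36 and 2.47 times the vehicle mean in auranofin replicate 1 of BMDM, where Nfe2l1 itself was 0.938 times the vehicle mean. The other genes of that list did not rise there, with Ngly1 at 0.988, Syvn1 at 0.969 and Sel1l at 0.848 times. The median difference over the list was -0.015 on the log2 scale. Of all genes, 23.2% lay at least 1.5-fold from the vehicle mean in that library.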
